A study of Homo sapiens with 3 samples.

Results

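The genes described here are *HSF1*, the transcription factor of the cytosolic heat shock response, and 9 chaperones and co-chaperones of the cytosol, *HSPA1A*, *HSPA1B*, *HSPA8*, *HSP90AA1*, *HSP90AB1*, *HSPH1*, *DNAJB1*, *HSPB1* and *BAG3*. They were chosen by name, as the genes whose Ensembl identifiers carry these symbols in GENCODE, and 10 of 10 were found among the 34908 identifiers of the count table. RNA was sequenced from KYSE510, an established cell line of esophageal squamous cell carcinoma (ESCC), after transfection with INTERFERin of NC RNA, a control duplex with no match in the human genome, or of siDAZ1-1 or siDAZ1-2, small interfering RNAs (siRNAs) of different sequence against *DAZAP1*. All cells were grown in RPMI-1640 with 10% fetal bovine serum, and the time of harvest for sequencing was not given in the sources used here. Each condition has 1 library, so no difference below has a replicate check and no condition was tested against another alone. Genes drew 14283061 reads in the NC RNA library, 14155792 in the siDAZ1-1 library and 14167566 in the siDAZ1-2 library, and values given below as 3 in a row keep this order.

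Chaperones bind proteins that are unfolded or not yet folded and keep them from clumping. HSP70 proteins bind and release their clients in a cycle driven by ATP, in which J-domain proteins bring the client and start ATP hydrolysis and nucleotide exchange factors release ADP, while HSP90 dimers act later on clients such as kinases and steroid receptors, and small heat shock proteins hold unfolded proteins without ATP. In unstressed cells HSF1 is held inactive by chaperones, and on protein damage it forms trimers that bind heat shock elements, runs of the unit NGAAN in alternating direction, in the promoters of chaperone genes. Tumour cells often carry high levels of these proteins. DAZAP1 is an RNA-binding protein that takes part in pre-mRNA splicing.

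The targeted gene was low in both siRNA libraries. *DAZAP1* (ENSG00000071626) had 3170, 1081 and 1647 reads. Set against NC RNA, the log2 ratio came to -1.59 for siDAZ1-1 (95% interval -1.69 to -1.49) and to -0.99 for siDAZ1-2 (-1.08 to -0.90), so less of its mRNA was left with siDAZ1-1. Ratios here are of counts per 1000000 reads (CPM) after TMM scaling, with 2 counts added before the logarithm, and intervals are exact Clopper-Pearson 95% intervals that cover counting error only. The cells carried RNA of an epithelium. Each of 11 markers, not all of them particular to squamous cells, passed the filter of a mean of 1 CPM. Their summed reads were 42593, 50337 and 38332, and *KRT5*, a basal keratin, had the highest mean read count of them. Of these markers *SFN* was at least 1.5-fold higher with siDAZ1-1, at 5487, 10201 and 7263 reads, a log2 ratio of 0.86. It was 0.56, short of this fold, once a trend with GC content and exon length was removed. With siDAZ1-2 3 of 11 were lower by that fold, *KRT6A*, *KRT17* and *CDH1*, beside 10.7% of all genes. *PERP*, at 3648, 4776 and 5550 reads, had a ratio of 0.56 with siDAZ1-2. With total library size it passed this fold, higher, at 0.62. *CDH1*, the epithelial cadherin, had 9147, 10970 and 3427 reads. The part of these differences in the values below was not tested. Of 6 fibroblast markers, with 391, 511 and 602 reads in sum, 1 passed the filter, *COL1A1*, with 369, 495 and 591 reads, and the defining marker *COL1A2* had 0 in each library. Of 5 immune markers, with 48, 31 and 50 reads in sum, 1 passed, *CD3E*, with 45, 28 and 46 reads, while the leukocyte gene *PTPRC* had 0, 2 and 3. The endothelial markers had 66, 52 and 25 reads in sum, with *VWF* at 63, 51 and 23 and *CDH5* at 3, 1 and 2, and *PECAM1* was not analysed here.

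The inducible HSP70 genes *HSPA1A* and *HSPA1B* were at least 1.5-fold higher with siDAZ1-2 and the co-chaperone *BAG3* was at least 1.5-fold lower. With siDAZ1-1 the J-domain gene *DNAJB1* was higher by that fold and no member was lower by it. *DNAJB1* lay near that fold, 0.585 in log2, with both siRNAs, at 0.62 with siDAZ1-1 and 0.56 with siDAZ1-2. The siRNA libraries did not differ for *DNAJB1* beyond counting error, at -0.07 (-0.15 to 0.02). After removal of the GC and length trend *DNAJB1* did not pass 1.5-fold either, which left 0 higher with siDAZ1-1. The share of all genes with that trend removed is not given here. All 10 members passed the filter. In the siDAZ1-1 comparison 1 of 10 members was at least 1.5-fold higher, beside 7.10% of the 12994 genes, and 0 were lower, beside 8.73%. In the siDAZ1-2 comparison 2 of 10 were higher, beside 8.86% of all genes, and 1 was lower, beside 10.7%. The 2 higher were *HSPA1A* and *HSPA1B*, near-identical genes whose values are uncertain as values of separate genes. With their reads summed 1 member was higher, and with the pair left out 0 were. With total library size 3 were higher with siDAZ1-2, *DNAJB1* being added. The share of all genes under that scaling is not given here, and 8.86% belongs to TMM scaling. At 2-fold the counts with siDAZ1-1 were 0 higher and 0 lower, beside 1.58% and 1.88% of all genes, and with siDAZ1-2 they were 1 and 0, beside 2.30% and 3.23%. With counts as small as these, a share of members near the share of all genes is not a result about the members. The median log2 ratio of the members was 0.16 with siDAZ1-1 and 0.35 with siDAZ1-2, beside medians over all genes of -0.0002 and -0.01. Ratios above 0 were seen for 9 of 10 members with siDAZ1-1, but for 6 of 10 after removal of the GC and length trend. With siDAZ1-2 they were seen for 7 of 10, or 8 of 10 with total library size, and both comparisons use the same NC RNA library. Together the members held 60485, 66272 and 70593 reads. That is 0.423% of all counted reads with NC RNA (exact 95% interval 0.420 to 0.427), 0.468% with siDAZ1-1 (0.465 to 0.472) and 0.498% with siDAZ1-2 (0.495 to 0.502). The intervals cover counting error only, and the shares are of library totals without TMM scaling. Shares for other sets of genes are not given here, so nothing particular to the members is read from them. Heavily read members weigh most in this sum. From NC RNA to siDAZ1-2 *HSPA8* went from 13081 to 17625 reads and *HSP90AA1* from 17296 to 22338. *HSPB1* went from 7079 to 5183 and *BAG3* from 1574 to 999. In bulk RNA, fewer cells with a transcript and less of it per cell cannot be told apart.

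**Figure D1:**
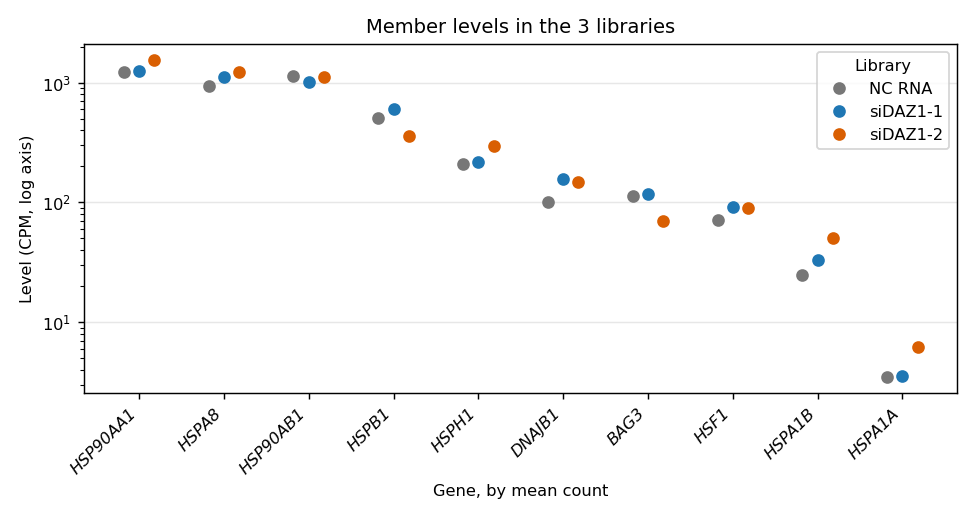
Level of each member in CPM (log axis) in the NC RNA, siDAZ1-1 and siDAZ1-2 libraries, 1 point per library, with genes ordered by mean count. *HSP90AA1* lies highest, between 1243 and 1556 CPM, and *HSPA1A* lowest, between 3.45 and 6.13 CPM.

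HSF1 is known to act through elements in promoters, so those of the members are shown before the values. RefSeq (GRCh38.p14) gave windows of 300 bases, 250 before and 50 after an annotated start, for 9 members, 14 windows in all because *HSP90AA1*, *HSP90AB1* and *DNAJB1* have several starts, and none for *HSF1*. The windows were searched for GAANNTTC and TTCNNGAA, which each read the same on both strands and can overlap each other, and for the 3-unit element, in which either of them runs on by any 2 bases and a further unit in the alternating direction. A 3-unit element was found for 3 genes, *HSPA8*, *HSP90AA1* and *HSP90AB1*, in 3 of the 14 windows (21.4%), and is held by 0.49% of 35116 promoter windows. A 2-unit element was found for 7 genes, in 8 of the 14 windows (57.1%), and is held by 13.49% of all windows, with GAANNTTC in 6.77% and TTCNNGAA in 7.74%. *HSPH1* and *BAG3* had neither in these windows, which says only that these letters are not there. The 150 bases before the start are printed for the members past 1.5-fold with either siRNA and for *HSPA8* and *HSP90AA1*, which have 3-unit elements, 5′ to 3′ on the strand of the gene, with the bases of 2-unit elements in capitals; overlapping elements form a longer run. *HSPA1A* is at chr6:31815393-31815542 (plus strand), *HSPA1B* at chr6:31827588-31827737 (plus), *DNAJB1* at chr19:14518398-14518547 (minus), *HSPA8* at chr11:123062137-123062286 (minus), *HSP90AA1* at chr14:102087045-102087194 (minus) and *BAG3* at chr10:119651230-119651379 (plus).
HSPA1A: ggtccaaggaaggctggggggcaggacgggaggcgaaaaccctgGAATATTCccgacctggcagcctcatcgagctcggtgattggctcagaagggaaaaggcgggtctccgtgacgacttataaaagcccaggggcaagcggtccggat
HSPA1B: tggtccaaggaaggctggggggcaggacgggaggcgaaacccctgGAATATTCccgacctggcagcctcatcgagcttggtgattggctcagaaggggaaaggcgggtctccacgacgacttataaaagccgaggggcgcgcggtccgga
DNAJB1: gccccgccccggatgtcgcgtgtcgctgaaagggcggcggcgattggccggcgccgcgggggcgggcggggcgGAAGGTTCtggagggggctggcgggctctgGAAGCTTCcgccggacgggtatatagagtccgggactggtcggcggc
HSPA8: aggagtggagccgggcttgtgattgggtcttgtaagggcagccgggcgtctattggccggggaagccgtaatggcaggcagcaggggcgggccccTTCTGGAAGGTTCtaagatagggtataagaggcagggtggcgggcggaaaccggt
HSP90AA1: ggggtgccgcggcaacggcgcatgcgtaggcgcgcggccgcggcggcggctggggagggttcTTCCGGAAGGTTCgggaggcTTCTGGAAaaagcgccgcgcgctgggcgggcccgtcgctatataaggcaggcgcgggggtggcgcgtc
BAG3: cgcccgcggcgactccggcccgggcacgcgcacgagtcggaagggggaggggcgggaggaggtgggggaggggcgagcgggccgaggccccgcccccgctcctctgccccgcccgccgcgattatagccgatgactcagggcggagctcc

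The *HSPA1A* and *HSPA1B* windows match at 92.0% of aligned columns, and a GAANNTTC match begins 106 and 105 bases before their starts. *HSPA8* has 3-unit elements that begin 230 and 55 bases before its start, the nearer of which is printed above. In *HSP90AA1* the 3-unit element begins 88 bases before the second of its annotated starts, the one printed, and a further 2-unit element begins 68 bases before it. *HSP90AB1* has 3-unit elements 165 and 112 bases before the third of its annotated starts. In *DNAJB1* 2-unit elements begin 77 and 47 bases before the second of its starts, the one printed, and a further one lies just after the third. *HSPB1* has a 2-unit element 182 bases before its start. A match is a description of the letters and was not set against binding of HSF1.

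**Figure D2:**
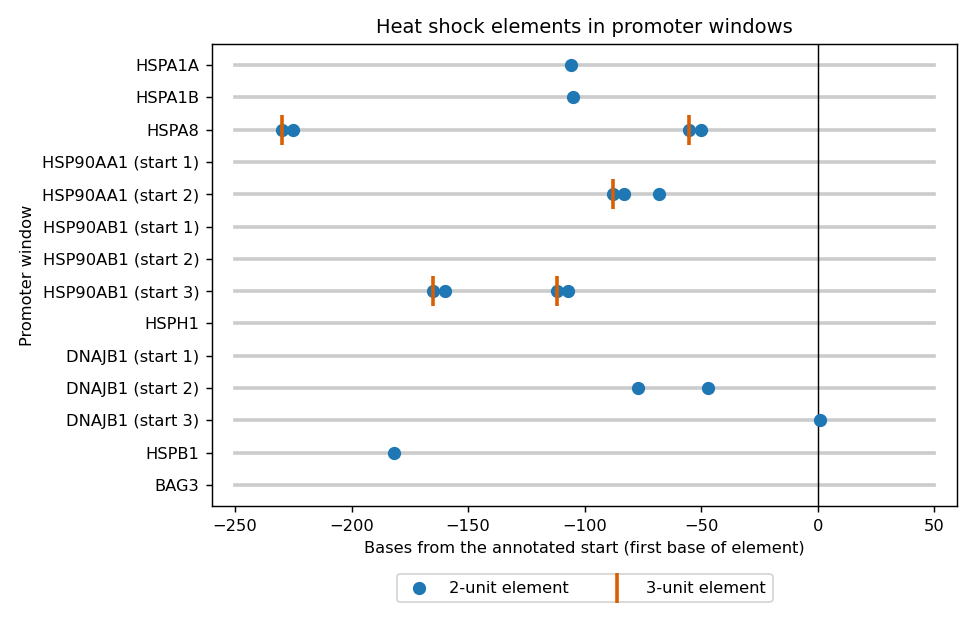
Positions of heat shock elements in the 14 promoter windows of 9 members, in bases from the annotated start; grey lines span each window, blue points mark the first base of a 2-unit element and orange bars that of a 3-unit element. The 3-unit elements lie in 3 windows, those of *HSPA8*, *HSP90AA1* and *HSP90AB1*.

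*HSF1* (ENSG00000185122) itself was somewhat higher with each siRNA. It had 993, 1308 and 1281 reads, so that both siRNA libraries lay above NC RNA. Its log2 ratio was 0.36 (95% interval 0.24 to 0.48) for siDAZ1-1 and 0.32 for siDAZ1-2 (0.20 to 0.44), that is 1.28-fold and 1.25-fold. These sizes depend on the GC and length trend, since with it removed the log2 ratios were 0.20 and 0.50, each outside its counting interval. The mRNA does not show how much of the protein was active, because HSF1 is controlled mainly after translation. Of its exon bases, 139 (2.6%) overlap *DGAT1* on the opposite strand, which had 278, 318 and 279 reads, and the use of strand in counting was not given in the sources used here.

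Among the HSP70 genes, the constitutive *HSPA8* (ENSG00000109971), which folds new proteins and strips clathrin from vesicles, had 13081, 16065 and 17625 reads. Both siRNA libraries were above NC RNA, with log2 ratios of 0.26 (95% interval 0.23 to 0.29) and 0.38 (0.35 to 0.42). With total library size these became 0.31 and 0.44, each outside its counting interval. After removal of the GC and length trend they were 0.23 and 0.3516, the latter just below its interval. The stress-inducible *HSPA1B* (ENSG00000204388) had 346, 471 and 723 reads. Its log2 ratio was 0.40 (95% interval 0.20 to 0.61) for siDAZ1-1 and 1.01 for siDAZ1-2 (0.83 to 1.21), the highest of any member, and 97.8% of all genes had a lower ratio with siDAZ1-2. The neighbouring copy *HSPA1A* (ENSG00000204389) had only 48, 51 and 88 reads in the NC RNA, siDAZ1-1 and siDAZ1-2 libraries. Its log2 ratio with siDAZ1-1, 0.05, had an interval of -0.55 to 0.65 and turned to -0.13 when the trend with GC content and exon length was removed, whereas with siDAZ1-2 it was 0.80 (0.31 to 1.37).

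The values of *HSPA1A* and *HSPA1B* are uncertain as values of separate genes. Their longest open reading frames differ at 4 of 1926 columns (99.8% identity), against 74.3% identity between *HSPA1A* and *HSPA8*. Of the stretches of 100 bases in the main transcript of *HSPA1A*, 69.9% also occur in other genes, mostly *HSPA1B*, and for *HSPA1B* the share is 72.7%, mostly *HSPA1A*. A transcript on the same strand, *AL671762.1*, which was not analysed here, shares 36.5% of the exon bases of *HSPA1B*. How reads that fit several genes were counted was not given in the sources used here. *UBB*, a ubiquitin gene looked at after its values were seen, had 0, 1 and 1 reads in the NC RNA, siDAZ1-1 and siDAZ1-2 libraries, and 27.0% of its stretches of 100 bases occur elsewhere. Within each library *HSPA1B* had more reads than *HSPA1A*, by a ratio of 7.21 with NC RNA (95% interval 5.32 to 9.96), 9.24 with siDAZ1-1 (6.91 to 12.6) and 8.22 with siDAZ1-2 (6.58 to 10.4), and these intervals overlap. Summed, the pair had 394, 522 and 811 reads, with log2 ratios of 0.37 for siDAZ1-1 (95% interval 0.18 to 0.56) and 0.99 for siDAZ1-2 (0.82 to 1.17). *HSPA6*, the most strictly inducible HSP70 gene, had 0, 0 and 3 reads; 0 reads in the NC RNA library set an upper limit of 0.21 CPM.

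*DNAJB1* (ENSG00000132002), the J-domain protein HSP40 that hands clients to HSP70, had 1413, 2233 and 2144 reads. Its log2 ratios of 0.62 (95% interval 0.53 to 0.72) and 0.56 (0.46 to 0.65) lay on either side of 1.5-fold, which is 0.585 on this scale. After removal of the GC and length trend, the ratio with siDAZ1-1 was 0.52 and no longer passed 1.5-fold, and with total library size the ratio with siDAZ1-2 was 0.61 and did pass it. On the opposite strand *TECR* overlaps 211 exon bases of *DNAJB1* (5.7%) and had 854, 867 and 746 reads. *HSPH1* (ENSG00000120694), the HSP110 protein that serves HSP70 as a nucleotide exchange factor, had 2908, 3101 and 4240 reads. Its log2 ratio was 0.05 with siDAZ1-1, with an interval of -0.02 to 0.13, and 0.50 with siDAZ1-2 (0.43 to 0.57). With the trend over GC content and length removed, the ratio with siDAZ1-1 was 0.29, outside its counting interval, and the log2 ratio of siDAZ1-2 to siDAZ1-1 went from 0.44 to 0.23.

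*BAG3* (ENSG00000151929), an exchange factor that links HSP70 and small heat shock proteins to selective autophagy, had 1574, 1686 and 999 reads. The NC RNA and siDAZ1-1 libraries were alike and siDAZ1-2 was low. The log2 ratio was 0.06 with siDAZ1-1, with an interval of -0.04 to 0.16, and -0.70 with siDAZ1-2 (-0.82 to -0.59), and 7.6% of all genes had a lower ratio with siDAZ1-2. With the trend over GC content and length removed, the ratio with siDAZ1-1 turned to -0.08.

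The cytosolic HSP90 genes were, with *HSPA8*, the most heavily read members. *HSP90AA1* (ENSG00000080824), the form that stress raises, had 17296, 18037 and 22338 reads. The difference from NC RNA, in log2, was 0.02 (95% interval -0.01 to 0.05) for siDAZ1-1 and 0.32 for siDAZ1-2 (0.29 to 0.35). With total library size these became 0.07 and 0.38, each outside its counting interval. *HSP90AB1* (ENSG00000096384), the constitutive form, had 15747, 14612 and 15972 reads. Its log2 ratios were -0.15 with siDAZ1-1 (-0.18 to -0.11) and -0.02 with siDAZ1-2 (-0.06 to 0.01). With total library size these were -0.095 and 0.03, and with the GC and length trend removed they were -0.20 and -0.07. Each of these alternative values lay outside its counting interval. Processed copies also drew reads. Among 4 *HSP90AA1* pseudogenes nearly all of the 1374, 1925 and 2430 reads of the NC RNA, siDAZ1-1 and siDAZ1-2 libraries lay on *HSP90AA2P*, and 4 *HSP90AB1* pseudogenes had 939, 1054 and 1048. Of the stretches of 50 bases of the main transcript, 18.2% for *HSP90AA1* and 18.8% for *HSP90AB1* occur in other genes. For stretches of 100 bases these shares are 2.2% and 1.6%. *HSP90AA1* also shares 197 exon bases (3.8%) with *WDR20* on the opposite strand, which had 323, 361 and 547 reads.

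*HSPB1* (ENSG00000106211), the small heat shock protein HSP27, which epithelial cells carry at high levels, had 7079, 8708 and 5183 reads. Of the 3 libraries siDAZ1-2 was the lowest, also with the trend over GC content and length removed. The log2 ratio was 0.26 (95% interval 0.22 to 0.31) for siDAZ1-1 and -0.49 for siDAZ1-2 (-0.55 to -0.44). After removal of the GC and length trend, these became -0.02 and -0.43, so the direction with siDAZ1-1 rests on that choice. The transcript of *HSPB1* is 64.3% G and C, and across 12821 genes, which are not independent replicates, ratios of siDAZ1-1 to NC RNA had a correlation of 0.36 with GC content, against -0.06 for siDAZ1-2.

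**Figure D3:**
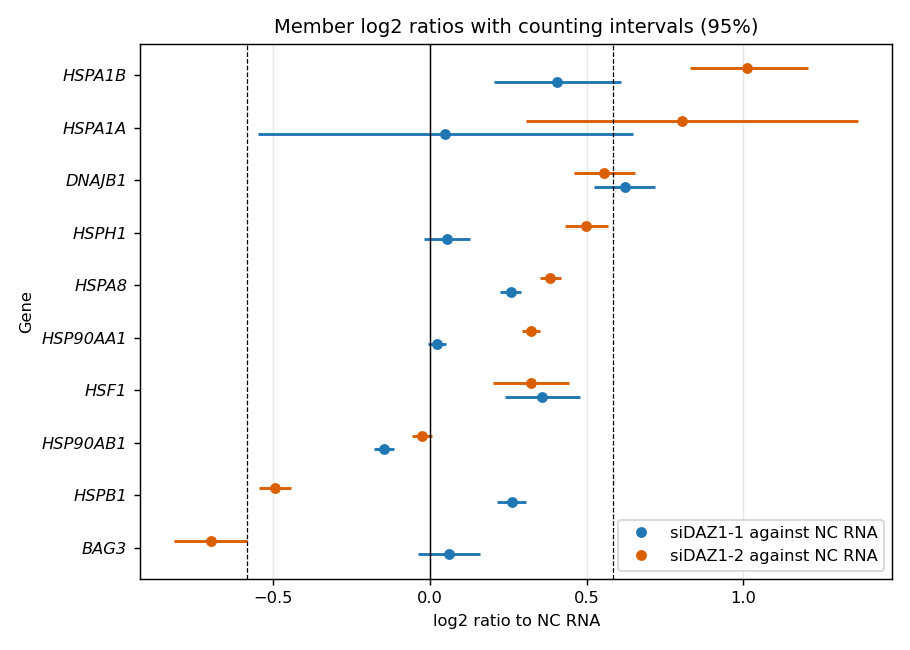
Log2 ratios to NC RNA, for each siRNA, of the 10 members (points), with exact 95% intervals of counting error (lines); dashed lines mark 1.5-fold. *HSPA1B*, *HSPA1A*, *HSPB1* and *BAG3* have the siRNAs farthest apart, by log2 ratios of 0.61 to 0.76 in size.

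The siRNA libraries were also compared with each other, which leaves out NC RNA. *HSPA1A* and *HSPA1B* were higher with siDAZ1-2 than with siDAZ1-1, by log2 ratios of 0.76 (95% interval 0.27 to 1.31) and 0.61 (0.44 to 0.78), and *HSPB1* and *BAG3* were lower, by -0.76 (-0.81 to -0.71) and -0.76 (-0.88 to -0.65). So 2 of 10 members were at least 1.5-fold higher, beside 8.50% of all genes, and 2 were lower, beside 9.64%. The 2 higher were the near-identical pair, whose summed reads gave a log2 ratio of 0.63 (0.47 to 0.79). With the pair left out 0 were higher. At 2-fold 0 were higher and 0 lower, beside 1.98% and 2.78%. The median of the members was 0.12, or 0.04 with *HSPA1A* and *HSPA1B* left out. *HSF1* and *DNAJB1* did not differ between the siRNA libraries beyond counting error, with intervals of -0.15 to 0.07 and -0.15 to 0.02, although with the trend removed these log2 ratios turned from -0.04 to 0.30 and from -0.07 to 0.04. *DAZAP1* itself was higher with siDAZ1-2, by 0.60. With the trend removed, *HSPB1* and *BAG3* were at -0.40 and -0.57 and neither passed 1.5-fold. By the same step *HSPA1A* went to 1.00 and *HSPA1B* to 0.83, the latter above its counting interval.

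Levels of different genes can be set side by side only per length, here as CPM per kilobase of annotated exon. With NC RNA the order ran from *HSP90AB1* at 380 over *HSPB1* at 311, *HSP90AA1* at 237 and *HSPA8* at 194 to a lower tier of *BAG3* at 41.2, *DNAJB1* at 27.7, *HSPH1* at 24.9, *HSF1* at 13.5, *HSPA1B* at 9.87 and *HSPA1A* at 1.39. With siDAZ1-1 *HSPB1* led at 373, followed by *HSP90AB1* at 343. With siDAZ1-2 *HSP90AB1* led at 373, and *HSPB1*, at 221, came after *HSP90AA1* at 297 and *HSPA8* at 253, while *BAG3* came after *DNAJB1* and *HSPH1*, at 25.3 against 40.7 and 35.2. These orders depend on which length a gene is given: with the length of its principal transcript, an alternative chosen after seeing the data, *HSPB1* led with NC RNA at 560 and *HSPA8* led with siDAZ1-2 at 499.

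Ratios between members within a library do not depend on how libraries are scaled to each other, but these are ratios of reads with no GC and length trend removed. *HSP90AA1* had 110 reads per 100 of *HSP90AB1* with NC RNA (95% interval 107 to 112), 123 with siDAZ1-1 (121 to 126) and 140 with siDAZ1-2 (137 to 143). This ratio of reads differed between all 3 libraries by more than counting error. It leaves out the pseudogenes *HSP90AA2P*, at 1372, 1921 and 2426 reads, and *HSP90AB3P*, at 939, 1049 and 1047. How reads that fit several genes were counted was not given, so the balance of the HSP90 forms themselves is uncertain. Against 100 reads of *HSPA8*, the summed *HSPA1A* and *HSPA1B* had 3.01 with NC RNA (2.72 to 3.33), 3.25 with siDAZ1-1 (2.97 to 3.55) and 4.60 with siDAZ1-2 (4.28 to 4.94). *BAG3* had 12.0 (11.4 to 12.7), 10.5 (9.98 to 11.0) and 5.67 (5.31 to 6.04) per 100 of *HSPA8* in the NC RNA, siDAZ1-1 and siDAZ1-2 libraries. For *HSPB1* the values were 54.1, 54.2 and 29.4, and those of NC RNA and siDAZ1-1 did not differ beyond counting error. That likeness depends on the trend, since with it removed the log2 ratio of siDAZ1-1 to NC RNA was -0.02 for *HSPB1* and 0.23 for *HSPA8*. *DNAJB1* had 10.8, 13.9 and 12.2 per 100, highest with siDAZ1-1.

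**Figure D4:**
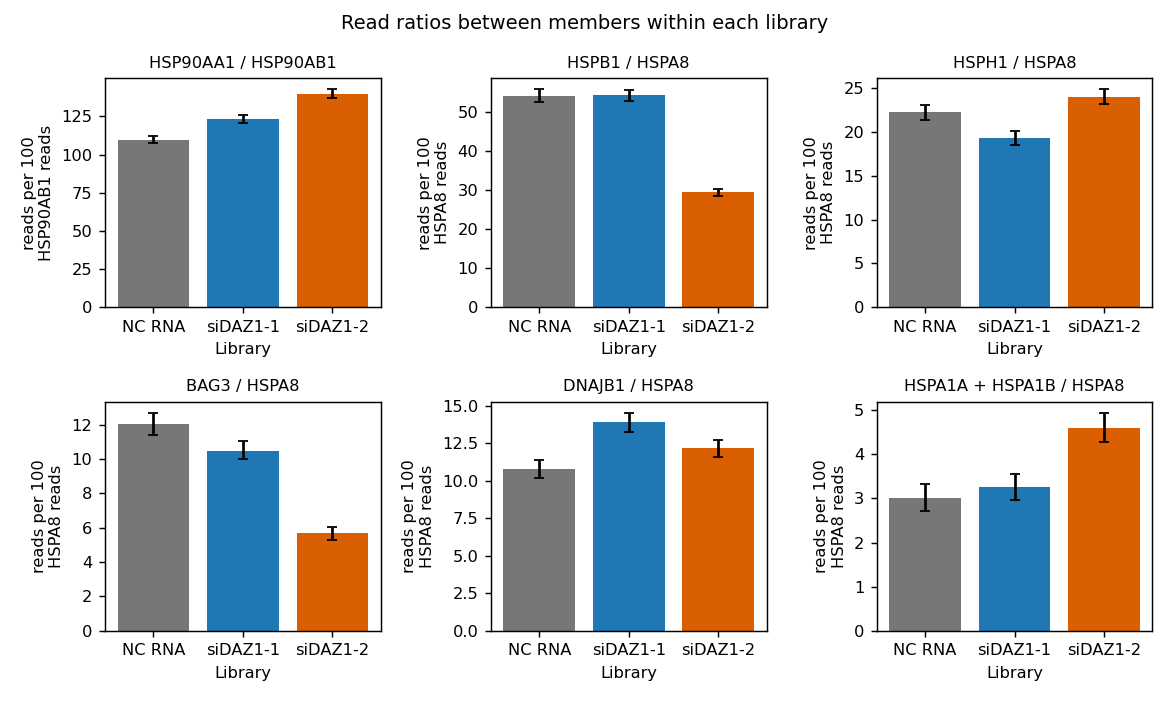
Reads of 5 members and of the *HSPA1A* and *HSPA1B* sum per 100 reads of *HSPA8* or, for *HSP90AA1*, of *HSP90AB1*, in each library (bars), with exact 95% intervals of counting error. With siDAZ1-2 *HSPB1* stands at 29.4 and *BAG3* at 5.67, well under the other libraries.

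Other genes of the chaperone system were described from 11 lists, some of which share genes. Counts of list genes past 1.5-fold are to be set beside the shares of all genes. These shares were 7.10% higher and 8.73% lower with siDAZ1-1, and 8.86% and 10.7% with siDAZ1-2. With siDAZ1-1 the medians of 8 lists lay below 0, and each of these turned above 0 with total library size or after removal of the GC and length trend. Total library size moves all ratios of a comparison alike, so a turn by it alone shows only how near 0 a median lay. With the trend removed, medians stayed below 0 for regulators of HSF1 (-0.03), other HSP70 and HSP110 genes (-0.03), other small heat shock genes (-0.12) and TRiC and prefoldin (-0.08). No direction is read from any of these medians. That of the exchange factors turned from 0.02 to -0.0022 with the trend removed. Of the regulators of HSF1, 8 of 9 genes passed the filter, with medians of -0.0049 with siDAZ1-1 and -0.07 with siDAZ1-2. In this list 0 genes passed 1.5-fold with siDAZ1-1, and with siDAZ1-2 1 was higher, *FBXW7*, a ubiquitin ligase subunit that marks HSF1 for degradation, at 298, 372 and 533 reads, and 1 was lower, *HSF4*, at 473, 420 and 281. *HSF2*, a partner of HSF1, had 557, 435 and 494 reads, and *SIRT1*, the deacetylase that prolongs DNA binding of HSF1, had 643, 500 and 550. *HSBP1L1* had 364, 460 and 479 reads, and *HSBP1*, which binds HSF1 trimers, had the highest mean read count of the list, at 1926, 2114 and 2087. Of 20 known HSF1 target genes outside the members 16 passed, with medians of -0.0062 and 0.17. With siDAZ1-1 0 of them were past 1.5-fold, or 1 with the GC and length trend removed, *DNAJA1*, higher at 0.62. With siDAZ1-2 2 were higher, *DNAJA1* and *HSPB8*, and 1 was lower, *HSPA4L*.

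In the HSP70 system, 6 of 8 other HSP70 and HSP110 genes of the cytosol passed, with medians of -0.04 and 0.27. *HSPA4*, an HSP110 protein with the highest mean read count of its list, had 3981, 4386 and 5895 reads and log2 ratios of 0.10 and 0.52, close to those of *HSPH1*. Its relative *HSPA4L* had 964, 680 and 355 reads and ratios of -0.54 and -1.48, the lowest of all 11 lists with siDAZ1-2. Past 1.5-fold were 1 gene higher with siDAZ1-1 (*HSPA12B*, at 14, 23 and 18 reads, which no longer passed after removal of the GC and length trend) and, with siDAZ1-2, 1 higher (*HSPA2*, at 74, 55 and 129 reads) and 1 lower (*HSPA4L*). Of 13 other J-domain genes 12 passed, with medians of -0.05 and 0.28; 0 were higher and 3 lower past 1.5-fold with siDAZ1-1 (*DNAJB4*, *DNAJC7* and *DNAJB14*), and with siDAZ1-2 1 was higher (*DNAJA1*) and 2 lower (*DNAJC5* and *DNAJB14*). After removal of the GC and length trend, *DNAJC7* alone of these 3 was still past 1.5-fold lower with siDAZ1-1, and *DNAJA1* passed it as well, higher, at 0.62. *DNAJA1*, an HSP40 protein like DNAJB1, had 1323, 1965 and 2948 reads and ratios of 0.53 and 1.11, and *DNAJB2* had 1202, 1467 and 1707. *DNAJB14*, a J-domain protein anchored in the ER membrane, had 1552, 779 and 958 reads and was past 1.5-fold lower with both siRNAs, at -1.03 and -0.74, but with siDAZ1-1 it was at -0.49, short of this fold, with the trend removed. Of the 8 exchange factors and BAG genes, all passed, with medians of 0.02 and 0.05. *BAG1* had 309, 466 and 493 reads with ratios of 0.55 and 0.63, and *SIL1*, an exchange factor of the ER, had 244, 384 and 356 with ratios of 0.61 and 0.50, so that each was past 1.5-fold with 1 siRNA, and 0 were lower by it. With the trend removed *SIL1* was at 0.48 and 0.59, past 1.5-fold with siDAZ1-2 instead of siDAZ1-1, and with total library size *BAG1* passed it with siDAZ1-1 too, at 0.60. *BAG2* had 80, 55 and 68 reads. *BAG6*, with the highest mean read count, had 3780, 3917 and 2848.

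Of 14 HSP90 co-chaperones 13 passed, with medians of 0.24 and 0.17, and 8 and 10 of them had ratios above 0. With the trend over GC content and length removed, the median with siDAZ1-1 was 0.09. Past 1.5-fold were 0 with siDAZ1-1 and 1 with siDAZ1-2, *FKBP5*, which was higher, at 339, 258 and 560 reads. *NUDC* had 1194, 1837 and 1804 reads with ratios of 0.58 and 0.55 and passed 1.5-fold with both siRNAs under total library size, at 0.63 and 0.61. *SUGT1* passed it with siDAZ1-1 with the trend removed, at 0.62. *AHSA1*, the activator of the HSP90 ATPase, had 2403, 3382 and 3425 with ratios of 0.45 and 0.47. *PTGES3*, the co-chaperone p23, with the highest mean read count, had 4795, 4049 and 4605 reads, with ratios of -0.28 and -0.10. In the list of other small heat shock genes, which holds *HSPB11* by its symbol, *HSPB8* and *HSPB11* passed the filter. The medians of -0.01 and 0.39 rest on these 2 genes alone and are not read as values of small heat shock proteins. *HSPB8* was past 1.5-fold higher with siDAZ1-2. *HSPB8*, the partner of BAG3 in selective autophagy, had 591, 561 and 955 reads, so its ratio with siDAZ1-2 was 0.65 where that of *BAG3* was -0.70, and *HSPB11* had 678, 738 and 771. *HSPB2* and *HSPB3* had 0 reads in each library, and *HSPB9* was not analysed here. In the list of chaperone-assisted autophagy, 6 of 7 genes passed, with medians of -0.02 and -0.07; 0 passed 1.5-fold with siDAZ1-1 and 2 were higher with siDAZ1-2, *HSPB8* and *SQSTM1*. *SQSTM1*, the cargo receptor p62, with the highest mean read count, had 6538, 7916 and 11029 reads, and *DYNLL1* had 2107, 2275 and 2191. *LAMP2*, a lysosomal membrane protein, had 3318, 2821 and 2623, and *HDAC6* had 1002, 839 and 893.

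Among chaperones of other kinds, 1 gene passed 1.5-fold. All 14 TRiC and prefoldin genes, whose complexes fold actin and tubulin, passed, with medians of -0.02 and 0.09 and 0 past 1.5-fold with either siRNA, or 1 with siDAZ1-2 under total library size, *CCT5*, at 0.60. *CCT5* had 4195, 5020 and 6326 reads and *CCT6A*, with the highest mean read count, 6471, 7450 and 9183, while *PFDN4* had 782, 557 and 628 and *VBP1* 1123, 807 and 904. Of 7 mitochondrial chaperones 1 was past 1.5-fold, *TRAP1*, the mitochondrial HSP90, with siDAZ1-1, at 624, 1046 and 733 reads, and the medians were 0.14 and 0.18. *HSPD1*, or HSP60, had 5579, 6715 and 6524 reads, its partner *HSPE1* had 108, 83 and 87 and *HSPA9*, with the highest mean read count, 8189, 6423 and 9923. For *HSPE1* 33.5% of stretches of 100 bases occur in other genes, so its count is uncertain. Of 10 ER chaperones 0 were past 1.5-fold, although *CALR* with siDAZ1-1 and *DNAJC3* with siDAZ1-2 passed it under total library size and *PDIA4*, lower with siDAZ1-1, with the trend removed. The list had medians of -0.10 and 0.11. After removal of the GC and length trend, the median with siDAZ1-1 was 0.05. *HSPA5*, the ER HSP70 protein BiP, had 5690, 7271 and 8428 reads, with ratios of 0.32 and 0.52, and *DNAJC3* had 665, 798 and 1000. *DNAJB9* had 391, 304 and 301, and *CANX*, the lectin chaperone calnexin, with the highest mean read count, 21588, 18647 and 17638.

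**Figure D5:**
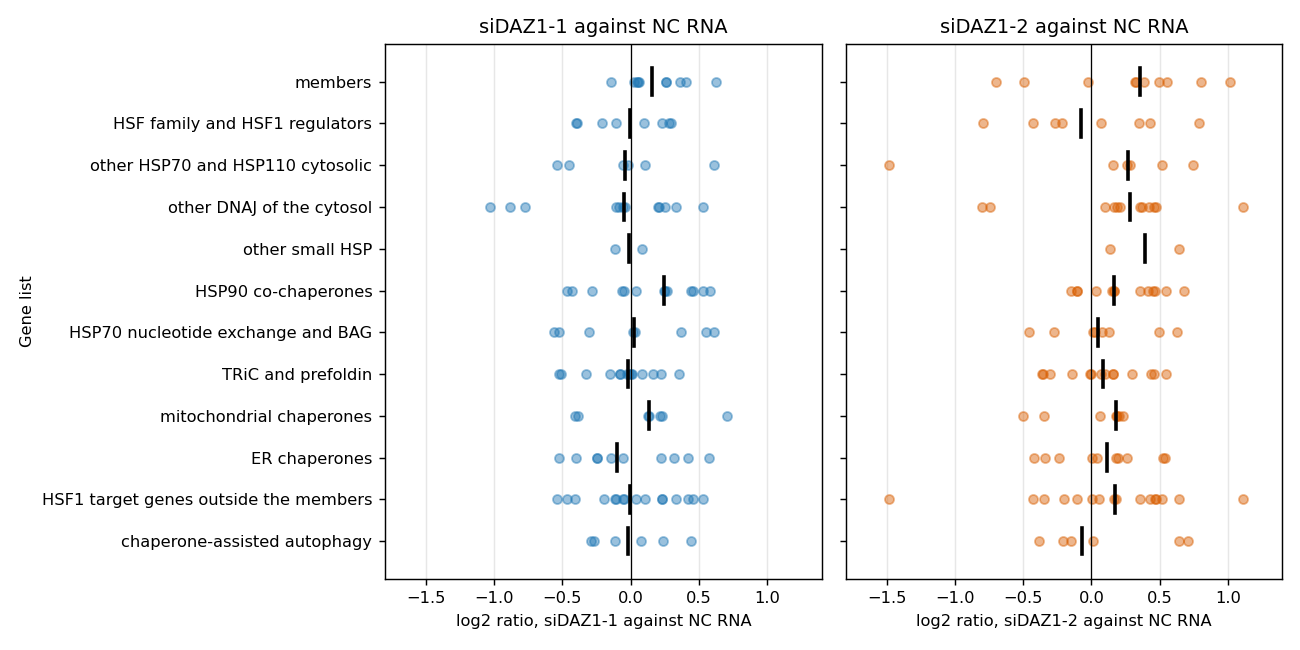
Log2 ratios to NC RNA of each gene that passed the filter (points) in the members and 11 other lists, with the list's median (black bar), for siDAZ1-1 (left) and siDAZ1-2 (right). The members' median is 0.16 with siDAZ1-1 and 0.35 with siDAZ1-2, and *HSPA4L* is the lowest point on the right at -1.48.

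Genes with a like pattern were sought among those with a mean of at least 1000 counts by the distance between pairs of log2 ratios to NC RNA. Nearest to *HSPA1B*, the member with the largest mean ratio in size, were *RAC1* (distance 0.0193), *SBDS* (0.0408) and *BICD2* (0.0589) among 4153 genes. *RAC1*, a small GTPase of the actin cytoskeleton, had 2158, 2938 and 4559 reads. Nearest to *HSP90AA1*, the member with the highest mean count, were *ZNF562* (0.0064), *NFKB1* (0.007) and *DRAP1* (0.0078) among 4152 genes. These distances rest on 3 libraries.

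When both siRNA libraries were taken as 1 group against NC RNA, edgeR's quasi-likelihood test called 0 of 12994 genes at an adjusted p under 0.05. At an unadjusted p under 0.05 there were 587 genes, and none of the 10 members was among them, the smallest member p being 0.0563 (*DNAJB1*). DESeq2 called 5 genes, none of them a member. The spread in these tests is that between 2 different siRNAs.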

How the data were processed

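The deposited values are whole read counts per gene, not normalized, for 3 libraries. The submitters' processing notes name TopHat2, HTSeq and hg19 (GRCh37), with no versions, and the counting mode, strand setting and annotation were not given in the sources used here. Names and exon lengths came from GENCODE 29 by identifier (33299 matched, and the rest held 0.715% of reads). The filter kept genes averaging 1 CPM or more, and counts were scaled by TMM (edgeR 4.0.16, R 4.3.3, prior count of 2). Exact intervals used SciPy 1.17.1, and alignments Biopython 1.88. Chi-square values per gene of 28.6 to 35.0 showed no copied libraries. The members and lists were chosen with earlier results of these data known. Genes of each list were named from the highest mean read count and, with a mean of at least 50 counts, the 2 most raised and 2 most lowered ratios of like sign with both siRNAs, other names having been chosen after their values were seen. Alternatives were DESeq2 1.42.0 size factors, total library size, prior counts of 0.25 and 10, other filters, removal of the GC and length trend (loess, span 0.5), 2-fold, and *HSPA1A* and *HSPA1B* summed or left out. Tables were handled with pandas 2.3.3 and NumPy 2.4.6 in Python 3.11.15 and drawn with Matplotlib 3.10.9.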

Additional observations from a re-analysis of the deposited data

Results flagged for a closer look

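Of the members, *HSPB1* and *BAG3* had log2 ratios to NC RNA of opposite sign with the siRNAs. The ratio with siDAZ1-2 minus that with siDAZ1-1 was -0.76 for *HSPB1* (-0.7557), from 0.26 to -0.49, and -0.76 for *BAG3* (-0.7612), from 0.06 to -0.70. With 1 library per siRNA these differences were not tested against a spread between replicates. The counting interval of *BAG3* with siDAZ1-1, -0.04 to 0.16, includes 0. Once the GC and length trend was taken out, the ratios with siDAZ1-1 were -0.02 for *HSPB1* and -0.08 for *BAG3*, so that neither sign then differed between the siRNAs.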

How the results depend on the processing

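The members' median log2 ratio stayed between 0.12 and 0.26 with siDAZ1-1, between 0.32 and 0.42 with siDAZ1-2 and between 0.04 and 0.18 for siDAZ1-2 against siDAZ1-1. With siDAZ1-1 it moved to 0.26 (0.2604) with a mean of at least 5 CPM, which drops *HSPA1A*, and to 0.2584 with the *HSPA1A* and *HSPA1B* reads summed. For siDAZ1-2 against siDAZ1-1 it moved to 0.0418 without this pair. Counts of members past 1.5-fold moved as follows. With total library size 3 were higher with siDAZ1-2, *DNAJB1* at 0.61 being added. At 2-fold, siDAZ1-1 had 0 higher, beside 1.58% of all genes, siDAZ1-2 had 1 higher, beside 2.30%, and 0 lower, beside 3.23%, and siDAZ1-2 against siDAZ1-1 had 0 and 0, beside 1.98% and 2.78%. With the GC and length trend removed, 0 were higher with siDAZ1-1 and 0 lower for siDAZ1-2 against siDAZ1-1. For these values the cause was not tested. Members higher with siDAZ1-2, against NC RNA and against siDAZ1-1 alike, numbered 1 with a mean of at least 5 CPM or the pair summed. They numbered 0 with a mean of at least 1000 counts or without the pair, since *HSPA1A* and *HSPA1B* are then fewer or absent. The 1000-count filter kept 4153 genes. Of these, 3.9% were higher with siDAZ1-2 against NC RNA and 6.6% against siDAZ1-1. For the 5 CPM filter and the pair summed or left out, such shares are not given here. Of 207 alternative values of single members, 182 stayed within the counting interval, 25 left it and 6 changed sign, none of them past 1.5-fold. DESeq2 called 5 genes where edgeR called 0 (*CCNG2*, *PER1*, *NOLC1*, *UQCRFS1P1* and *CDK15*, named after their values were seen). A 2-unit element was found for 7 members and a 3-unit element for 3. With 1 library in each condition, no paired analysis was possible. Protein identity was not run, and that of open reading frames took its place. Levels per length were also taken with the principal transcript, and calls of list genes with DESeq2 size factors, total library size and the trend removed, all chosen after seeing the data. DESeq2 size factors moved 1 of these calls against NC RNA, *NUDC* with siDAZ1-1, from 0.5827 to 0.585. Depth limits *HSPA1A* most, with 48 to 88 reads.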
